A study of Mus musculus with 6 samples.

Results

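Skeletal muscle cells secrete cytokines and chemokines, and 10 of these genes were examined in mouse C2C12 myotubes treated with sorafenib. They were taken by gene name from the deposited table of 55356 genes, in which each name occurred on exactly 1 row: Il6, Lif, Il15, Csf1, Ccl2, Ccl7, Cxcl1, Cxcl5, Cxcl12 and Cx3cl1. C2C12 is a mouse myoblast line whose cells fuse into multinucleate myotubes in culture, and sorafenib is a cancer drug that blocks several protein kinases. The control cultures (n = 3) received 0.1% DMSO, the solvent, for 24 h, and the treated cultures (n = 3) received 20 µM sorafenib for 24 h. The replicates are described by the series as independent experiments. All 6 cultures were of the same line. The series asks how the drug alters gene expression in muscle cells, and its title ties this to cachexia.

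Cytokines of this group act as messages from muscle to its surroundings. Interleukin-6 and leukaemia inhibitory factor (LIF) signal through the shared receptor subunit gp130 to JAK kinases and STAT3, interleukin-15 signals through the interleukin-2 receptor beta and gamma chains, and CSF1 is the main growth and survival factor of macrophages. Chemokines are small secreted proteins that direct the movement of cells. CCL2 and CCL7 attract monocytes, CXCL1 and CXCL5 attract neutrophils, CXCL12 attracts cells that carry CXCR4, and CX3CL1 is made as a membrane-bound protein that proteases can release. In skeletal muscle these factors are known for their roles in exercise, in repair after injury and in wasting, and NF-kB is a known activator of several of them.

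Csf1, Ccl2, Ccl7, Cxcl1, Cxcl5 and Cxcl12 were higher after sorafenib, Lif and Il6 were lower, and Il15 and Cx3cl1 did not pass the test. The values are the authors' normalized counts, and changes were tested with limma on log2(normalized count + 1) over 16645 genes, at a Benjamini-Hochberg adjusted p of 0.05. By this rule 8 of the 10 genes were called, against 76.6% of all genes tested, so the share called is near that of the whole table. The groups did not overlap for 8 of 10, against 79.5% of all genes, with sorafenib above for 6 (40.1% of all genes) and below for 2 (39.4%). For direction, 6 of 10 were higher against 38.8% of all genes, and 2 of 10 were lower against 37.8%. With every library scaled to the same total, 7 of 10 were higher against 46.6%, and 2 of 10 lower against 31.7%. With quantile normalization 6 of 10 were higher against 40.5%, and 2 of 10 lower against 36.3%. A change of at least 2-fold was called upward for 5 of 10 (12.5% of all genes) and downward for 1 of 10 (17.3%). The median log2 change over the 10 genes was 1.01, against 0.015 over all genes tested. Cxcl5 reached the minimum of 10 normalized counts only in the sorafenib libraries, so it had to differ. The counts and the median that include it carry this limit. The 10 genes were also chosen with earlier results of these data known, so these shares describe the group and do not test it.

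The windows just before the start sites of 4 of these genes are printed here because each held a match to a motif named below. Of these genes Csf1 and Cxcl1 rose and Il6 and Lif fell. The windows of Cxcl12, which also rose, and of Cx3cl1 held no match and are not printed. RefSeq promoters on GRCm38.p6 were found for 6 of the 10 genes. Il15, Ccl2, Ccl7 and Cxcl5 had none there and were not searched. The 250 bases before the RefSeq start were searched on both strands. The motifs were the 10-base NF-kB consensus, AP-1 (TGANTCA), C/EBP (TTNNGNAA), the ATF4 composite element (TGATGNAA) and the cyclic AMP response element (TGACGTCA). Capitals mark the bases of every match, and the lines read 5′ to 3′ on the strand of the gene. Csf1 lies on the minus strand at chr3:107760470-107760719, Cxcl1 on the plus strand at chr5:90890995-90891244, Il6 on the plus strand at chr5:30012864-30013113 and Lif on the plus strand at chr11:4257318-4257567.
Csf1: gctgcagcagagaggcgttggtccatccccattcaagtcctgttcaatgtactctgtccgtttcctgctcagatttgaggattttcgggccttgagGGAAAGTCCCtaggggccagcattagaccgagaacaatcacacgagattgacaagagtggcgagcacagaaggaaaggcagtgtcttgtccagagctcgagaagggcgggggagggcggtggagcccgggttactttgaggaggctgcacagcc
Cxcl1: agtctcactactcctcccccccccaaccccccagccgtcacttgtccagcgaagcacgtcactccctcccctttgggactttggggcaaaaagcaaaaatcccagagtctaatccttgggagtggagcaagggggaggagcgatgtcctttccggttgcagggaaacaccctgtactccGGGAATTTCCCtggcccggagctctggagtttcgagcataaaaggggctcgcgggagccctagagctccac
Il6: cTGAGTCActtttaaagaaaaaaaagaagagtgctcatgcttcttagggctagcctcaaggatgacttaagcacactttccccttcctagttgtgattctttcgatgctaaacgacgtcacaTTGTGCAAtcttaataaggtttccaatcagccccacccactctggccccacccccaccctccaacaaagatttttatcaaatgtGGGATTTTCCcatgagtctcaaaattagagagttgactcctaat
Lif: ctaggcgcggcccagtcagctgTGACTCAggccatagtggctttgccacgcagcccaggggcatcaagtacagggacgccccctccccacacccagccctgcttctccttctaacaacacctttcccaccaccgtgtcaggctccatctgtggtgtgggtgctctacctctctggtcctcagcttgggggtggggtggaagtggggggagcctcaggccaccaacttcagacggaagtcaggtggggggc

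An NF-kB match was present in the windows of Csf1, Cxcl1 and Il6. It ended 145 bases before the start in Csf1, 61 bases before it in Cxcl1 and 35 bases before it in Il6. In Cxcl1 the consensus matched on both strands, in runs shifted by 1 base, and these make up the single stretch in capitals. Il6 also held an AP-1 match ending 243 bases and a C/EBP match ending 121 bases before the start. Lif held an AP-1 match ending 222 bases before the start. The AP-1 letters match on both strands, since they are their own reverse complement. Matches of different motifs did not overlap. Neither Cxcl12 nor Cx3cl1 had a match to any of the 5 motifs in this window. Among all 32851 promoter windows of the same length, 3.9% held the NF-kB consensus, 6.75% AP-1, 36.8% C/EBP, 3.45% the ATF4 composite and 1.55% the cyclic AMP response element. The NF-kB match was thus found both in genes that rose and in a gene that fell.

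Csf1 had the highest level per length among the 10 genes in both groups. Its normalized counts were 12507.4, 13159.4 and 12602.1 in the DMSO libraries and 37925.2, 36784.2 and 36920.7 in the sorafenib libraries. The groups were far apart compared with the spread inside them. The mean went from 12756.3 ± 352.3 to 37210.0 ± 623.1 (SD, n = 3 each), a 2.92-fold rise and a log2 change of 1.54 ± 0.03 (SE, limma adjusted p = 1.58e-09). A larger absolute log2 change was seen in 17.5% of all genes tested. Csf1 (ENSMUSG00000014599.11) spans chromosome 3, 107741048 to 107760469 on the minus strand, by GENCODE M21 on GRCm38. Csf1 made up 64.6% to 66.4% of the summed normalized counts of the 10 genes, not corrected for length, in DMSO and 82.9% to 84.6% in sorafenib. The sum ranged between 18849.2 and 20365.5 for DMSO, and between 44380.9 and 44821.8 after the drug.

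**Figure D1:**
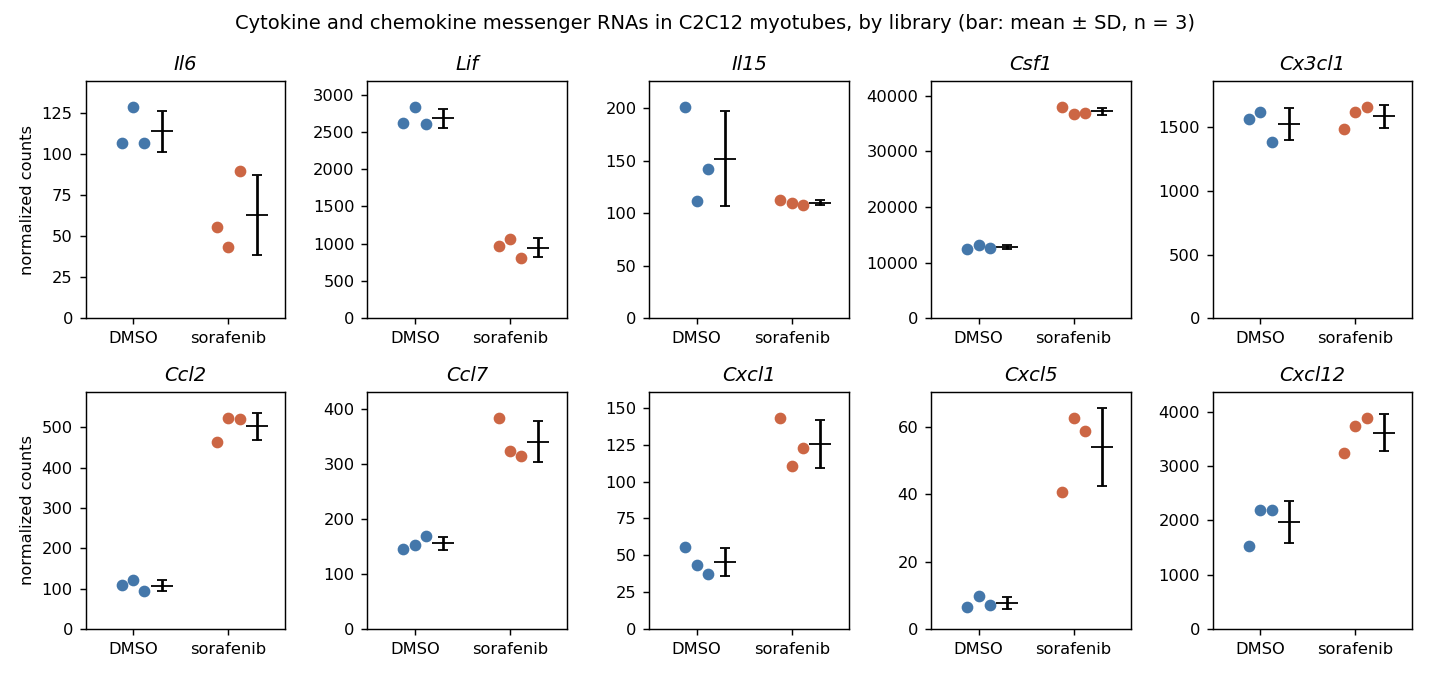
Normalized counts of the 10 genes in each library, with a linear axis from 0 in every panel; points are libraries and the bars beside them the mean ± SD of 3. The 3 sorafenib libraries lie above the DMSO libraries for Csf1, Ccl2, Ccl7, Cxcl1, Cxcl5 and Cxcl12, below them for Il6 and Lif, and overlap with them for Il15 and Cx3cl1.

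Lif and Il6, the members of the interleukin-6 family, were lower. Lif (ENSMUSG00000034394.15, chromosome 11, 4257557 to 4272514) stood at 2620.0, 2830.2 and 2603.4 normalized counts in DMSO and at 975.6, 1066.3 and 803.7 in sorafenib. All treated libraries were below all controls, with means of 2684.5 ± 126.4 and 948.5 ± 133.4 (SD, n = 3 each). The fall was 2.83-fold, with a log2 change of −1.51 ± 0.10 (SE, limma adjusted p = 1.2e-06). Il6 (ENSMUSG00000025746.12, chromosome 5, 30013114 to 30019981) had 106.6, 128.3 and 106.8 normalized counts in DMSO and 55.27, 43.36 and 89.89 in sorafenib. Its groups were also apart, although sorafenib replicate 3 came close to the controls. The log2 change was −0.91 ± 0.25 (limma adjusted p = 0.00947), and it ranged from −1.20 to −0.68 over the alternatives tried. The ratio of Lif to Il6 was 24.6, 22.1 and 24.4 in DMSO and 17.7, 24.6 and 8.94 in sorafenib, so it overlapped between groups. An exact two-sided permutation test of this ratio gave p = 0.4 (adjusted p = 0.4 over 3 ratios), where 0.1 is the smallest p that 3 against 3 allows.

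Il15, a cytokine that supports natural killer and memory T cells and is abundant in muscle, did not pass. Its normalized counts were 200.8, 111.8 and 142.5 in DMSO and 112.3, 110.0 and 107.8 in sorafenib, and the groups overlapped. DMSO replicate 1 was the highest, while the treated libraries lay close together. The log2 change was −0.42 ± 0.20, with a 95% interval from −0.88 to 0.04 (limma adjusted p = 0.086). It passed without DMSO replicate 2, at −0.62 ± 0.17 (limma adjusted p = 0.0145), and was −0.20 without DMSO replicate 1, so the value rests on which control libraries are used. Il15 (ENSMUSG00000031712.11) spans chromosome 8, 82331632 to 82403222, on the minus strand.

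Ccl2 and Ccl7, whose genes are neighbours on chromosome 11, rose together. Ccl2 (ENSMUSG00000035385.6, 82035571 to 82037453) stood at 109.1, 120.3 and 93.58 normalized counts in DMSO and at 463.7, 522.9 and 520.8 in sorafenib. The treated libraries were all well above the highest control, and the means of 107.7 ± 13.43 and 502.5 ± 33.6 (SD, n = 3 each) gave a 4.67-fold rise. This is 2.22 ± 0.12 on the log2 scale (SE, limma adjusted p = 2.65e-07), and 9.14% of all genes tested had a larger absolute change. Ccl7 (ENSMUSG00000035373.3, 82045712 to 82047525) stood at 146.1, 152.9 and 168.5 in DMSO and at 383.4, 323.9 and 314.4 in sorafenib. The groups were apart here too, with a 2.19-fold rise and a log2 change of 1.12 ± 0.12 (limma adjusted p = 1.99e-05). The ratio of Ccl2 to Ccl7 was 0.746, 0.787 and 0.555 in DMSO and 1.21, 1.61 and 1.66 in sorafenib. Every treated ratio was above every control ratio, by 1.10 on the log2 scale. An exact two-sided permutation test gave p = 0.1, the smallest it allows at n = 3 each, and an adjusted p = 0.15 over 3 ratios.

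Of the other genes listed from the same chromosome 11 cluster, Ccl11 and Ccl12 were under the minimum and Ccl8 was not. In mean normalized counts per kb of exon, Ccl8 stood at 112 in DMSO, against 94.6 for Ccl2, with overlapping library ranges. In sorafenib it stood at 171, against 442 for Ccl2. Ccl8, a chemokine of monocytes, whose start lies 79.6 kb from that of Ccl2, stood at 43.76, 73.26 and 54.49 in DMSO and at 98.05, 69.42 and 95.03 in sorafenib. Its groups overlapped, and its log2 change of 0.62 ± 0.23 (limma adjusted p = 0.033) lost its call in 6 of the alternatives tried. These were the replicate block (adjusted p = 0.0629), the fit with no trend or robust weights (adjusted p = 0.0541), and leaving out DMSO replicate 1 or 3 or sorafenib replicate 1 or 3, where limma's adjusted p was 0.0784 to 0.107. Ccl11 (eotaxin) was listed at 1.95, 10.71 and 11.2 in DMSO and at 0 after sorafenib in every library, and Ccl12 was listed at 0 in all 6.

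Cxcl1 and Cxcl5, neutrophil attractants from a cluster on chromosome 5, were low in controls and rose. Cxcl1 (ENSMUSG00000029380.12, 90891241 to 90893115) stood at 55.87, 43.58 and 37.08 normalized counts in DMSO and at 143.2, 110.4 and 123.0 in sorafenib. All treated libraries were above all controls, a 2.76-fold rise with a log2 change of 1.46 ± 0.19 (SE, limma adjusted p = 0.000103). Cxcl5 (ENSMUSG00000029371.8, 90759360 to 90761624) was low, at 6.42, 9.72 and 7.12 in DMSO and 40.7, 62.63 and 58.71 in sorafenib. These means of 7.75 ± 1.74 and 54.01 ± 11.7 (SD, n = 3 each) differed 6.97-fold, with a log2 change of 2.65 ± 0.28 (limma adjusted p = 2.06e-05). Cxcl5 reached the minimum of 10 only in the sorafenib libraries, so it had to differ, and this p-value carries that limit. The log2 change depends on the pseudocount, at 1.84 with a pseudocount of 10. Without any 1 of the sorafenib libraries Cxcl5 was under the minimum and not tested. A value of 1 read corresponded to 0.913 to 1.19 normalized counts, so these are small numbers of reads in the controls. The ratio of Cxcl1 to Cxcl5 was 8.71, 4.48 and 5.21 in DMSO and 3.52, 1.76 and 2.09 in sorafenib. The groups did not overlap, and an exact two-sided permutation test gave p = 0.1, the smallest it allows at n = 3 each (adjusted p = 0.15 over 3 ratios). Of the genes between and beside them, Cxcl2, Cxcl3 and Cxcl15 were listed at 0 in all 6 libraries, and Ppbp and Pf4 were at 2.74 normalized counts or lower in each.

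**Figure D2:**
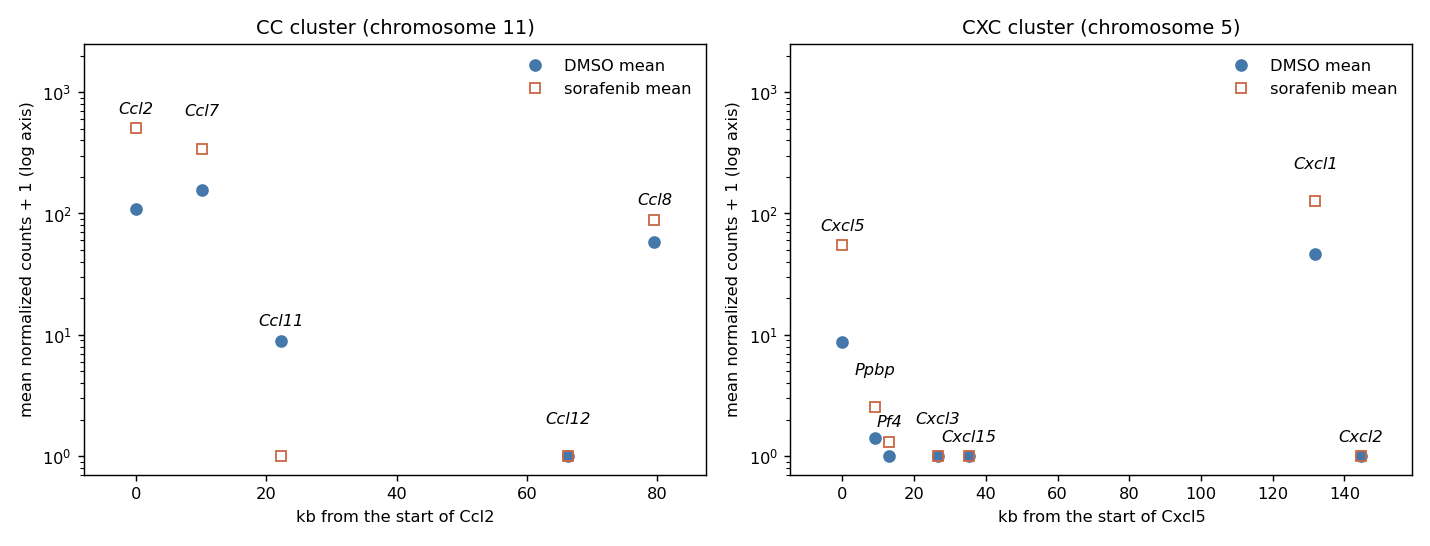
Mean normalized counts plus 1 (log axis, n = 3 per mean) of the chemokine genes in the clusters of Ccl2 and of Cxcl5, against the distance in kb from the start of the first gene; filled circles are DMSO and open squares sorafenib. Ccl2, Ccl7, Cxcl1 and Cxcl5 have squares well above their circles, while Ccl12, Cxcl2, Cxcl3 and Cxcl15 are listed at 0 in both groups.

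Cxcl12 rose and Cx3cl1 did not pass. Cxcl12 (ENSMUSG00000061353.12, chromosome 6, 117168535 to 117181367) stood at 1528.2, 2186.0 and 2189.4 normalized counts in DMSO and at 3236.3, 3733.7 and 3884.1 in sorafenib. Replicate 1 was the lowest in either group, and the groups were apart. The rise was 1.84-fold, with a log2 change of 0.89 ± 0.15 (SE, limma adjusted p = 0.00114). Cx3cl1 (ENSMUSG00000031778.14, chromosome 8, 94772009 to 94782427) stood at 1568.7, 1623.3 and 1385.5 in DMSO and at 1486.1, 1623.5 and 1657.7 in sorafenib, and the groups overlapped. Its log2 change was 0.06 ± 0.07, with a 95% interval from −0.10 to 0.22 (limma adjusted p = 0.466). With every library scaled to the same total it was 0.22 ± 0.08 and passed (limma adjusted p = 0.0263). Under it the all-gene median shifted by 0.156 on the log2 scale.

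**Figure D3:**
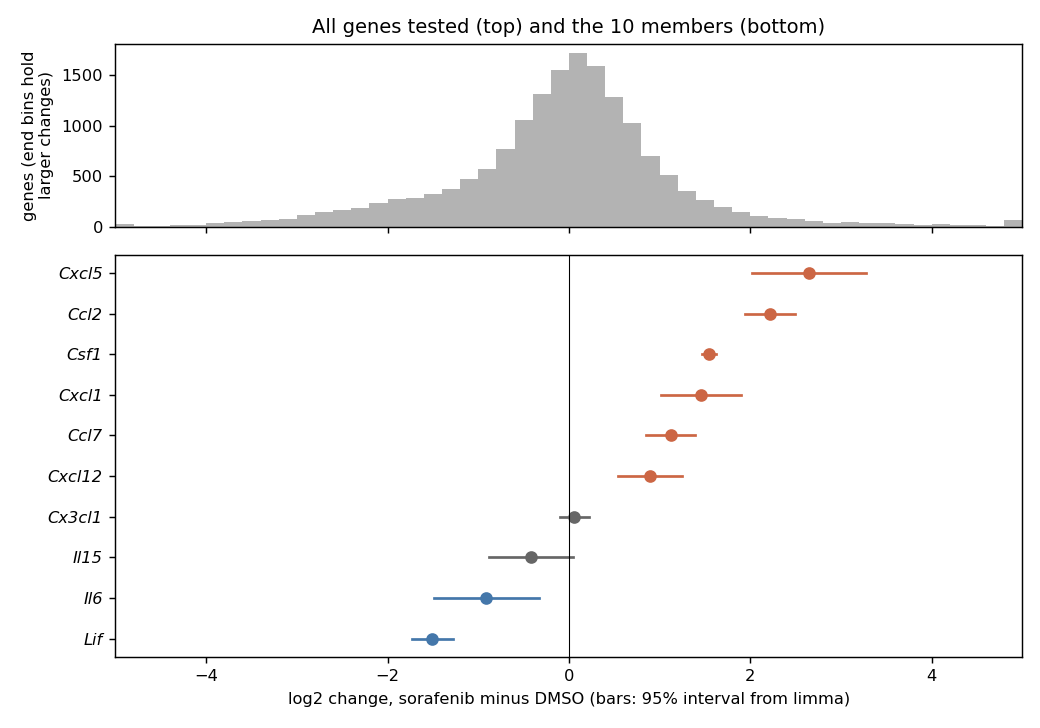
Log2 change of all 16645 genes tested (top, number of genes per bin, the end bins also holding larger changes) and of the 10 cytokine and chemokine genes (bottom, points with 95% intervals from limma). The members run from −1.51 for Lif to 2.65 for Cxcl5, and the intervals of Cx3cl1 and Il15 include 0.

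Levels of different genes were compared as mean normalized counts per kb of exon, with all exons of a gene in GENCODE M21 merged. In DMSO the order was Csf1 at 2420 per kb, Lif at 617, Cx3cl1 at 388, Cxcl12 at 241, Ccl7 at 195, Ccl2 at 94.6, Il15 at 67.1, Il6 at 46.9, Cxcl1 at 24.3 and Cxcl5 at 4.16. The library ranges of neighbours in this order overlapped for Cxcl12 with Ccl7, for Ccl2 with Il15 and for Il15 with Il6, and for no other neighbours. In sorafenib Csf1 was again first, at 7050 per kb, followed by Cxcl12 at 443, Ccl2 at 442, Ccl7 at 425 and Cx3cl1 at 404, whose library ranges overlapped from each to the next. Lif followed at 218 per kb, then Cxcl1 at 67.0, Il15 at 48.7, Cxcl5 at 29.0 and Il6 at 25.9, where only the last 2 had overlapping ranges. Lif thus moved from the second place to the sixth, and Il6 from the eighth to the last. By the longest coding transcript in place of merged exons, Cx3cl1 and Ccl7 change places in sorafenib, at 479 and 425 per kb.

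Receptors of these ligands were split, with 4 of 10 tested genes higher and 6 lower (38.8% and 37.8% of all genes tested). Of the 18 listed, 8 were under the minimum. Cxcr4, the receptor of CXCL12, fell 15.2-fold, from 2151.3, 2551.4 and 2465.9 normalized counts in DMSO to 175.2, 139.4 and 156.7 in sorafenib. On the log2 scale this is −3.92 ± 0.10 (SE, limma adjusted p = 4.35e-09). Ackr3, a scavenging receptor that also binds CXCL12, fell from 1472.5, 1561.3 and 1404.7 to 369.8, 440.8 and 398.2, a log2 change of −1.88 ± 0.08. Both CXCL12 receptors were therefore lower in libraries where the ligand's RNA was higher. Ackr4, a scavenger of other chemokines, had a log2 change of −2.78 ± 0.41 and reached the minimum only in DMSO.

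Within the interleukin-6 family the receptor chains moved in both directions. Il6ra, the chain that binds interleukin-6, stood at 299.8, 425.9 and 339.9 normalized counts in DMSO and at 1121.6, 956.5 and 990.4 in sorafenib, a log2 change of 1.54 ± 0.13 (limma adjusted p = 5.09e-06). Il6st, which encodes gp130, rose by 0.52 ± 0.03 on the log2 scale, from a mean of 16480.3 to 23633.5. Lifr, the LIF receptor, changed by −0.55 ± 0.16 (limma adjusted p = 0.0154), which did not pass with no filter on low values (adjusted p = 0.0736) or without sorafenib replicate 2 (adjusted p = 0.05). Osmr, the oncostatin M receptor, rose from 2830.3, 3246.5 and 2949.1 to 6049.5, 6505.3 and 6414.6. Of the 8 other tested genes of this family 3 were higher and 3 lower (38.8% and 37.8% of all genes tested). Cntfr, among the higher, had overlapping groups. It did not pass without replicate 1 or 3 of either group, at limma adjusted p-values of 0.0525 to 0.0706. Ctf1 (cardiotrophin 1), a ligand of the family, changed by −1.64 ± 0.18, and Osm, the ligand of OSMR, was listed at 0 in all 6 libraries.

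The interleukin-15 receptor chains also diverged. Il15ra, which presents interleukin-15 to neighbouring cells, stood at 27.25, 8.27 and 7.47 in DMSO and at 116.1, 108.0 and 127.4 in sorafenib, a log2 change of 3.18 ± 0.43 (limma adjusted p = 0.000171). The signalling chains Il2rb and Il2rg changed by −1.50 ± 0.20 and −0.94 ± 0.16. Of the receptors under the minimum, Csf1r, the receptor of CSF1, was at 8.66 normalized counts or lower in every library, Ccr2, the receptor of CCL2, at 1.88 or lower, and Cxcr2, the receptor of CXCL1 and CXCL5, was listed at 0 in all 6. Cx3cr1 had 7.66 to 11.66 in DMSO and 13.07 to 23.37 in sorafenib, a change of 0.83 ± 0.32 (limma adjusted p = 0.0413) that did not pass with no filter (adjusted p = 0.0618). It also missed without any 1 of the DMSO libraries or without sorafenib replicate 2 or 3, at 0.67 to 0.94 with adjusted p-values of 0.0504 to 0.14 by limma.

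**Figure D4:**
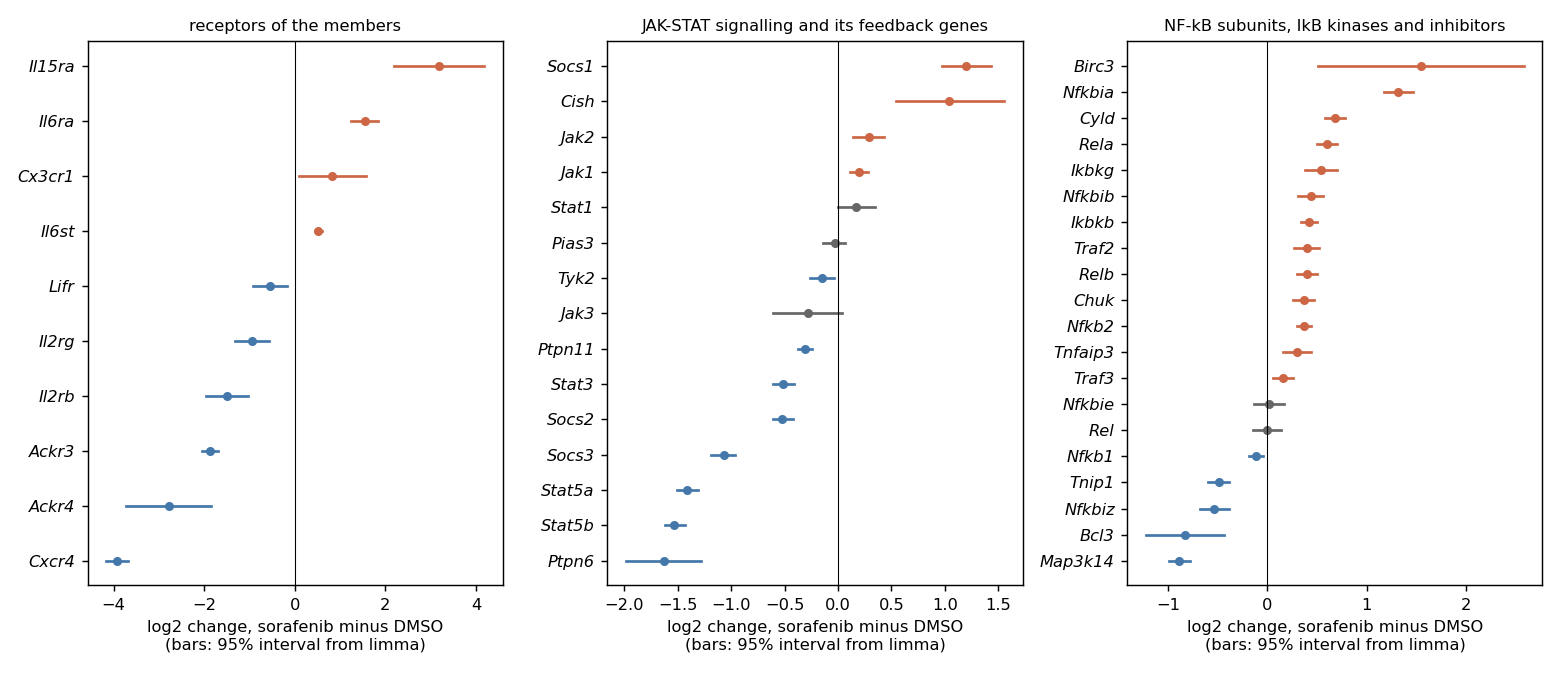
Log2 change (points) with 95% intervals from limma of the tested receptor, JAK-STAT and NF-kB genes, orange where called higher, blue where called lower and grey where not called. Cxcr4 lies lowest among the receptors, and 13 of 20 NF-kB genes are called higher, against 38.8% of all genes tested. Tyk2, Pias3 and Nfkb1 turn sign with equal totals.

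Of 15 tested genes downstream of the cytokine receptors 8 were lower and 4 higher, against 37.8% and 38.8% of all genes tested. With equal totals the sign of Tyk2 and Pias3 turned. Socs3, a feedback inhibitor induced by STAT3, fell from 4130.2, 3973.2 and 3732.9 normalized counts to 1943.4, 1866.8 and 1816.1, a log2 change of −1.07 ± 0.05 (limma adjusted p = 1.04e-07). Stat5a and Stat5b changed by −1.41 ± 0.05 and −1.53 ± 0.04, and Stat3 by −0.51 ± 0.04. The phosphatase Ptpn11, with the most normalized counts of the list, changed by −0.31 ± 0.03, but by −0.14 with quantile normalization and by −0.15 with equal totals. Socs1, another feedback inhibitor, went the other way at 1.20 ± 0.10.

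NF-kB subunits, their kinases and inhibitors were higher in 13 of 20 tested cases and lower in 5, against 38.8% and 37.8% of all genes. Of the 13, 2 were at least 2-fold higher, and the median log2 change was 0.37. Nfkb1, called lower, turned to 0.04 with equal totals. Nfkbia, which encodes the inhibitor IkB-alpha and is itself an NF-kB target, rose from 974.8, 1041.3 and 969.7 normalized counts to 2639.2, 2560.6 and 2277.0. Its log2 change was 1.32 ± 0.07 (limma adjusted p = 1.49e-07). The subunit Rela changed by 0.60 ± 0.04 and the deubiquitinase Cyld by 0.68 ± 0.04. Map3k14, the kinase of the alternative pathway, changed by −0.89 ± 0.04. Among regulators of cytokine messenger RNA and release, 4 of 12 tested were higher and 8 lower (38.8% and 37.8% of all genes tested). Zfp36l1 and Zfp36, which promote decay of AU-rich messenger RNAs, changed by −2.13 ± 0.03 and −0.86 ± 0.07. Zfp36l2, of the same family, went the other way at 0.15 ± 0.05 (limma adjusted p = 0.0188). It did not pass with no trend or robust weights, or without DMSO replicate 1 or 3. Rhbdf1, an inactive rhomboid protein that assists the protease ADAM17, changed by −0.73 ± 0.04, and the RNA-binding protein Khsrp by 0.45 ± 0.04.

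Other chemokines and cytokines did not share a direction. Of 18 other CC chemokines 5 were tested, 4 higher and 0 lower at a limma adjusted p of 0.05. Among all genes tested 38.8% were higher and 37.8% lower. Of the 4 higher CC chemokines, 2 reached the minimum only in sorafenib. Ccl5, an attractant of T cells and monocytes, went from 2.93, 2.37 and 3.35 normalized counts to 215.9, 181.1 and 150.1, and Ccl4 went from 0 in all DMSO libraries to 30.99, 24.83 and 11.91 normalized counts. Ccl25 rose by 1.08 ± 0.08 on the log2 scale, from 305.4, 326.7 and 293.6 to 640.2, 629.9 and 685.4. Ccl9 changed by −0.88 ± 0.42 and was not called, but passed without sorafenib replicate 3 at −1.24 (limma adjusted p = 0.0236).

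Of 13 other CXC and XC chemokines 5 were tested, 1 higher and 3 lower (38.8% and 37.8% of all genes tested). Of the lower ones 2 reached the minimum only in DMSO. Cxcl10, an interferon-inducible chemokine, went from 15.49, 17.18 and 17.33 to 191.3, 186.3 and 169.1 normalized counts, a log2 change of 3.37 ± 0.16 (limma adjusted p = 1.08e-07). Cxcl9, which shares the receptor CXCR3 with it, went the other way, from 28.3, 43.98 and 42.54 to 1.83, 2.76 and 1.83. Cxcl13 fell from 108.2, 78.32 and 105.0 to 9.14, 13.82 and 11.02. Cxcl14 went from 51.09, 76.92 and 58.59 to 0, 3.36 and 0.87. Cxcl16 missed the threshold at −0.36 ± 0.47.

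Of 34 other interleukins, colony-stimulating factors and TNF ligands 15 were tested, 3 higher and 9 lower (38.8% and 37.8% of all genes tested). Of these Il23a reached the minimum only in sorafenib and Il16 only in DMSO, so their direction was fixed by the filter. Tnfsf9, the ligand of the costimulatory receptor 4-1BB, fell from 1593.4, 1716.6 and 1695.9 to 472.6, 467.0 and 454.3 normalized counts, a log2 change of −1.84 ± 0.06 (limma adjusted p = 1.23e-08). Il33, an alarmin, fell from 703.1, 916.6 and 814.1 to 133.5, 141.8 and 145.8. Il23a, a subunit of interleukin-23, went from 2.81, 2.26 and 1.21 to 77.38, 61.21 and 60.4. Tnf, named here after its values were seen, was at 2.15, 0 and 0 in DMSO and at 21.22, 9.8 and 10.65 in sorafenib. Tnf was under the minimum for a test. Il1b, also named after its values were seen, fell from 210.4, 298.8 and 216.9 to 38.92, 42.71 and 57.31. Its log2 change was −2.36 ± 0.20 (limma adjusted p = 4.58e-06). Il34, the other known ligand of CSF1R and likewise chosen after its values were seen, changed by 0.31 ± 0.14 and was not called, though it passed with equal totals at 0.47 (limma adjusted p = 0.0151), with quantile normalization at 0.42 (adjusted p = 0.0231) and without DMSO replicate 2 at 0.49 (adjusted p = 0.00171).

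**Figure D5:**
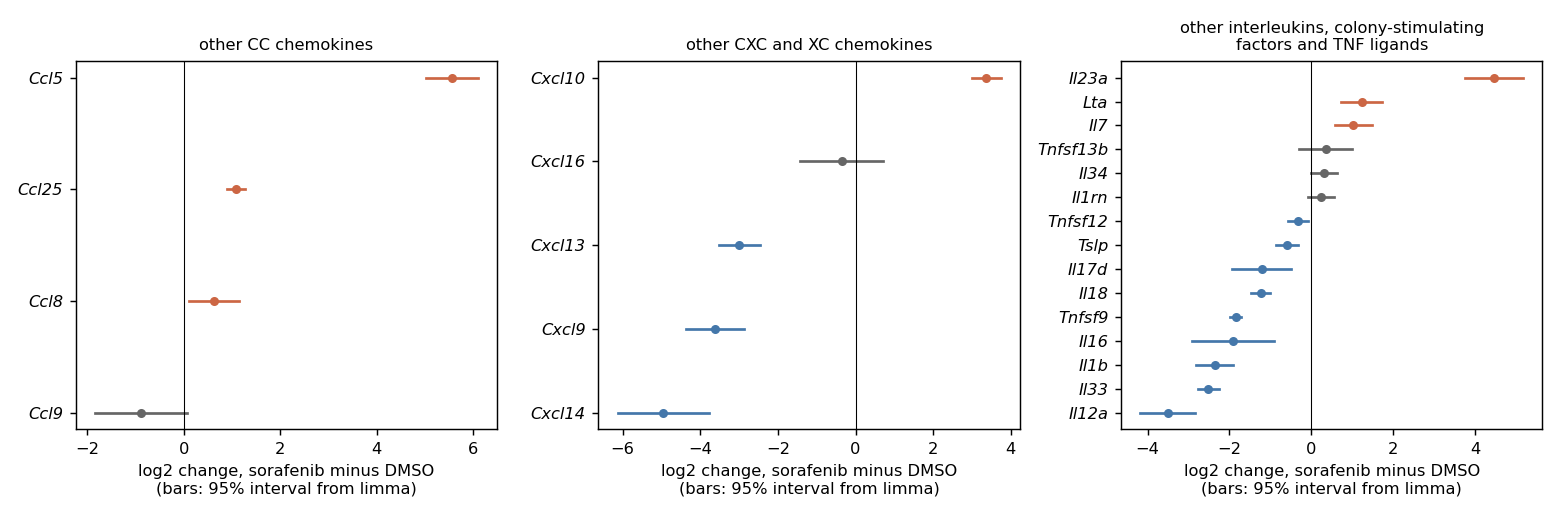
Log2 change (points) with 95% intervals from limma of the other tested chemokines and cytokines, orange where called higher, blue where called lower and grey where not called. Ccl5 and Cxcl10 lie far on the higher side, Cxcl13, Cxcl9 and Cxcl14 on the lower side, and Ccl4 is left out because it was listed at 0 in DMSO.

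The genes most like each member were sought among 13350 tested genes, predicted genes and pseudogenes left out, by Euclidean distance between log2 profiles over the 6 libraries, each centred on its mean. The nearest to Csf1 was Irf2bp2 at 0.04, to Ccl2 Cdca7 at 0.14, to Ccl7 Maff at 0.09 and to Cxcl12 Ptprq at 0.10. For Lif it was Pid1 at 0.19, for Il6 Stk36 at 0.42, for Il15 Pear1 at 0.24 and for Cx3cl1 Zfp433 at 0.07. For Cxcl1 it was Gtse1 at 0.21, and for Cxcl5 Arap2 at 0.31. These profiles share the same 6 libraries, and the distance mostly compares the size of the change.

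Markers of the cultured cells were counted by the same rule, under which 38.8% of all genes tested were higher and 37.8% lower. All 8 myotube markers were lower, and their sum lay between 1702123.8 and 1830450.5 normalized counts in controls and between 475884.4 and 567603.5 in treated libraries. In RNA from whole cultures, fewer myotubes and less RNA per myotube cannot be told apart. Of 12 macrophage and leukocyte markers 4 were tested, 3 higher and 1 lower, and their sum lay between 387.4 and 424.5 in controls and between 1013.5 and 1168.6 in treated libraries. Cd14 and Cd68, which are not restricted to leukocytes, made up most of it: Cd14 stood at 276.4, 263.4 and 294.0 and then at 684.5, 640.4 and 604.0, and Cd68 at 47.58, 50.87 and 38.12 and then at 435.7, 365.7 and 357.8. Itgam, the 1 tested marker of this list called lower, fell from 65.08, 51.02 and 66.76 to 16.39, 15.64 and 19.25. The defining leukocyte marker Ptprc was at 0.98 normalized counts or lower in every library, and Adgre1 was listed at 0 in all 6. Of 8 endothelial markers 4 were tested, 3 of them lower. Of these Cdh5 and Cldn5 reached the minimum only in DMSO and so had to differ. Vwf, also lower, did not pass with quantile normalization (limma adjusted p = 0.0576) or without replicate 3 of either group. The sums of the endothelial markers were 149.8 to 199.8 in DMSO and 98.58 to 132.9 in sorafenib, and Tie1 was listed at 0 in all 6. Of 8 fibroblast markers 7 were tested, 2 higher and 5 lower, of which Dpt reached the minimum only in DMSO and so had to differ. Pdgfra, also lower, did not pass with equal totals (limma adjusted p = 0.116). It also missed without DMSO replicate 2 or 3 or without sorafenib replicate 3. The 2 higher were Ly6a at 0.52 ± 0.08 and Cd34 at 0.57 ± 0.08 on the log2 scale. The sums were 71131.7 to 78738.9 in DMSO and 27411.5 to 28241.8 in sorafenib. Col1a1 was their largest part, with means of 61374.5 in DMSO and 11383.4 in sorafenib. No fibroblast marker was at 0 in all libraries, though Thy1 was at 3.09 normalized counts or lower in each. All cultures were of the same line, and whether any fibroblasts were present was not tested.

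By the authors' deposited table, the log2 change was 1.54 for Csf1, 2.20 for Ccl2, 1.12 for Ccl7, 1.41 for Cxcl1, 2.55 for Cxcl5 and 0.87 for Cxcl12. The authors' deposited table gives −1.50 for Lif, −0.84 for Il6, −0.45 for Il15 and 0.06 for Cx3cl1. The authors' deposited table has adjusted p-values of 0.125 for Il15 and 0.742 for Cx3cl1, and of 0.0104 or lower for the other 8 genes. Library totals of normalized counts spanned 77972419 to 78898086 for DMSO and 70211431 to 70598400 for sorafenib, and the estimated depth spanned 65520000 to 80190000 reads.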

How the data were processed

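Poly(A)-selected RNA of 6 C2C12 myotube cultures was sequenced from stranded libraries, per the labels' protocols. The deposited values per library are signal values, namely normalized counts that the authors made with DESeq2, per the submitters' processing notes, which also name bcl2fastq and GRCm38.p6 without versions. Per the file headers, the deposited table also gives a log2 fold change, a standard error treated as a score, and an adjusted p-value for each gene. No source used here names the quantification tool. The positions deposited in the table do not match GRCm38: of 185 listed genes, 5 had the same start and end within 1 base of GENCODE M21, whose positions are printed, matched by gene identifier.

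The 16645 genes that reached 10 normalized counts in 3 or more libraries were tested, all 10 members among them. Limma 3.58.1 in R 4.3.3, with trend and robust empirical Bayes, was fitted on log2(normalized count + 1) with a group term alone. Benjamini-Hochberg adjustment ran over all tested genes, with a threshold of 0.05. The step was checked on simulated data with far fewer changed genes than were called here, so the check does not cover that setting. A change on this scale understates that of low genes. Between 55.3% and 64.5% of values under 30 were whole multiples, within 0.02, of the value of 1 read, so whole reads were not recovered and no count model was run. Depth is the normalized total divided by the value of 1 read, and small counts limit precision for Cxcl5, Il6 and Cxcl1.

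The members and gene lists were chosen with earlier results of these data known. All members are named. From other lists the 3 smallest p, the most abundant gene, and any receptor or chemokine at the minimum could be named, with genes neighbouring the chemokine members and the nearest gene in pattern. Any other gene was chosen after its values were seen. Alternatives were equal totals, quantile normalization, a pseudocount of 0.1 or of 10, no filter, a minimum of 50, a replicate block, no trend or robust weights, and leaving out each library. Tables and figures were made with Python 3.11.15, matplotlib 3.10.9 and pandas 2.3.3.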

Additional observations from a re-analysis of the deposited data

How the results depend on the processing

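The direction and call of Csf1, Ccl2, Ccl7, Cxcl1, Cxcl12, Lif and Il6 held under every alternative tried. Those of Cxcl5 held wherever it was tested, though outside the fit with no filter the minimum fixed its direction. Of 136 refits of single members, 134 kept their side of the threshold, and the exceptions were Il15 without DMSO replicate 2 (−0.62) and Cx3cl1 with equal totals (0.22). Members called higher numbered 5 to 6, and members called lower 2 to 3, when each library was left out in turn. All genes called numbered 11805 to 12166 in those refits, against 12750. Among other listed genes, equal totals reversed Tyk2 to 0.01, Pias3 to 0.12 and Nfkb1 to 0.04, from −0.15, −0.03 and −0.12. Equal totals scales each library by a single factor, and under it the all-gene median shifted by 0.156 on the log2 scale. Cxcl5 fell under the minimum of 50 and has no value there.

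The replicate block left 6 members higher and 2 lower, with 12635 genes called in all. Same-numbered libraries had deviations that correlated at 0.0769, 0.0448 and 0.022, and the other pairs at −0.0688 to 0.0253. A pairing by number could not be settled from these values, and the main fit has a group term alone. DMSO replicates 1 and 2 correlated best with the sorafenib library of the same number. DMSO replicate 3 correlated best with sorafenib replicate 2, at 0.0253. The deposited library names carry numbers that alternate between DMSO and sorafenib in replicate order.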
